A study of Mus musculus with 4 samples.

Results

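Cadherins and non-clustered protocadherins are membrane proteins by which cells recognise and hold on to each other. Here their transcripts were followed from whole prefrontal cortex to the RNA on tagged ribosomes in Crh-IRES-Cre mice. The genes were every row of the deposited count tables whose symbol was Cdh or Pcdh followed by a number alone, without regard to any measured value. The rule found 34 of 24100 genes, 23 cadherins and 11 protocadherins, and left out the clustered Pcdha, Pcdhb and Pcdhg genes. It also left out Pcdh11x, a delta-1 protocadherin whose symbol ends in a letter. RNA was measured in 4 libraries from untreated adult males, each made from 5 animals: 1 Input, labelled total RNA of the dissected cortex, and 3 immunopurified (IP) libraries of RNA bound to EGFP-tagged polysomes. All 4 came from the same line (Crh-IRES-Cre), which carries Cre recombinase at Crh, the corticotropin-releasing hormone gene. How the tagged ribosome was brought into the cells was not given in the sources used here. The labels did not say that the IP libraries came from separate animals, and p-values here reflect spread among libraries, which may be technical.

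Cadherins bind their like on the neighbouring cell through repeated extracellular domains that need calcium to hold their shape. Classical cadherins, of type I and type II, reach through the membrane to catenins, which tie them to actin. Type I members such as N-cadherin work broadly at junctions and synapses, while type II members are known in the brain for marking areas, layers and classes of neuron in different combinations. The delta protocadherins lack the catenin-binding tail, signal through other partners such as the WAVE actin complex, and are known for roles in axon growth, synapse remodelling and sorting of neurons. In cortex the 2 families are expressed in overlapping patterns by excitatory neurons, interneurons, glia and vessel cells.

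The Input library held 14474529 counts, and the IP libraries held 10031072 to 23548375. Values below are CPM, counts relative to a TMM-scaled library total, with the SD over 3 IP libraries. The Input is 1 library without a replicate. Crh measured 1.32 CPM in the Input against 501, 174 and 193 CPM in IP 1, 2 and 3. Summed over 8 markers of the Vip class and of interneurons from the caudal ganglionic eminence, the level was 131 CPM in the Input and 4483 to 7196 CPM in IP. Of those 8 genes 8 passed the test used below. For 8 excitatory neuron markers the sum was 2386 CPM in the Input and 696 to 1313 CPM in IP. For 8 microglial markers it was 75.7 CPM and 5.02 to 21.0 CPM. The 8 oligodendrocyte markers summed to 699 CPM in the Input and 323 to 504 CPM in IP. Those of astrocytes (8 genes, with Slc1a2 the largest part) summed to 2648 CPM and to 1635, 2826 and 1808 CPM in IP 1, 2 and 3. The sum over 12 endothelial markers went the other way, from 41.6 CPM to 160, 520 and 206 CPM in IP 1, 2 and 3, with Slc2a1 its largest part in each library. In such bulk samples fewer cells of a type and less RNA per cell cannot be told apart, nor can choice of cell and loading of ribosomes.

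No cadherin or protocadherin passed the test between IP and Input. By edgeR's quasi-likelihood test (two-sided, Benjamini-Hochberg over 14636 genes, threshold 0.05) 0 of the 30 members with enough counts were called, where 0.458% of all genes were (0.41% higher in IP and 0.0478% lower). At an unadjusted p under 0.05 the count was 2 members (6.67%), against 4.43% of all genes (3.2% higher and 1.23% lower), and both members were higher in IP. DESeq2 called 1 member, where it called 1.24% of all genes, and limma-voom called 0, where it called 0.348%. The lowest adjusted p was that of Pcdh18 (0.287) and the next that of Cdh20 (0.996). With a lone Input the test rests on the spread of the IP libraries, taken mostly as it is shared over all genes. The SE and p of a gene thus reflect its own spread only in part. A missed threshold does not show that levels were alike.

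Seen by direction, 10 of the 30 members lay above the Input in all 3 IP libraries (33.3%, against 19.7% of all genes tested) and 7 below it in all 3 (23.3%, against 24.1%). Of the 24 members that reached 10 CPM in the Input or in the mean of IP, 10 lay above (41.7%, against 27% of the 9514 genes at that level) and 5 below (20.8%, against 18.1%). Cdh5, Pcdh18 and Pcdh20 reached that level through IP alone, and Cdh22 through the Input alone. Such genes had to differ between the groups, so these counts are descriptions. With scaling by library totals alone the counts over the 30 were 8 above and 9 below, because Cdh7 and Cdh10 left the first group and Cdh9 and Cdh12 joined the second. The median log2 fold of the 30 members was 0.30, beside 0.083 for all genes tested. For the 24 members at 10 CPM or more it was also 0.30, beside 0.19 for the 9514 genes at that level. Library totals moved the median of all genes by -0.27 and upper-quartile factors by -0.22, and the members' median then stood at 0.028 beside -0.19 and at 0.085 beside -0.13. The 24 members were highest about equally often in IP 1 (9 genes), IP 2 (7) and IP 3 (8). This is near the shares of the 9514 genes at that level (33.8%, 34.4% and 31.7%).

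**Figure D1:**
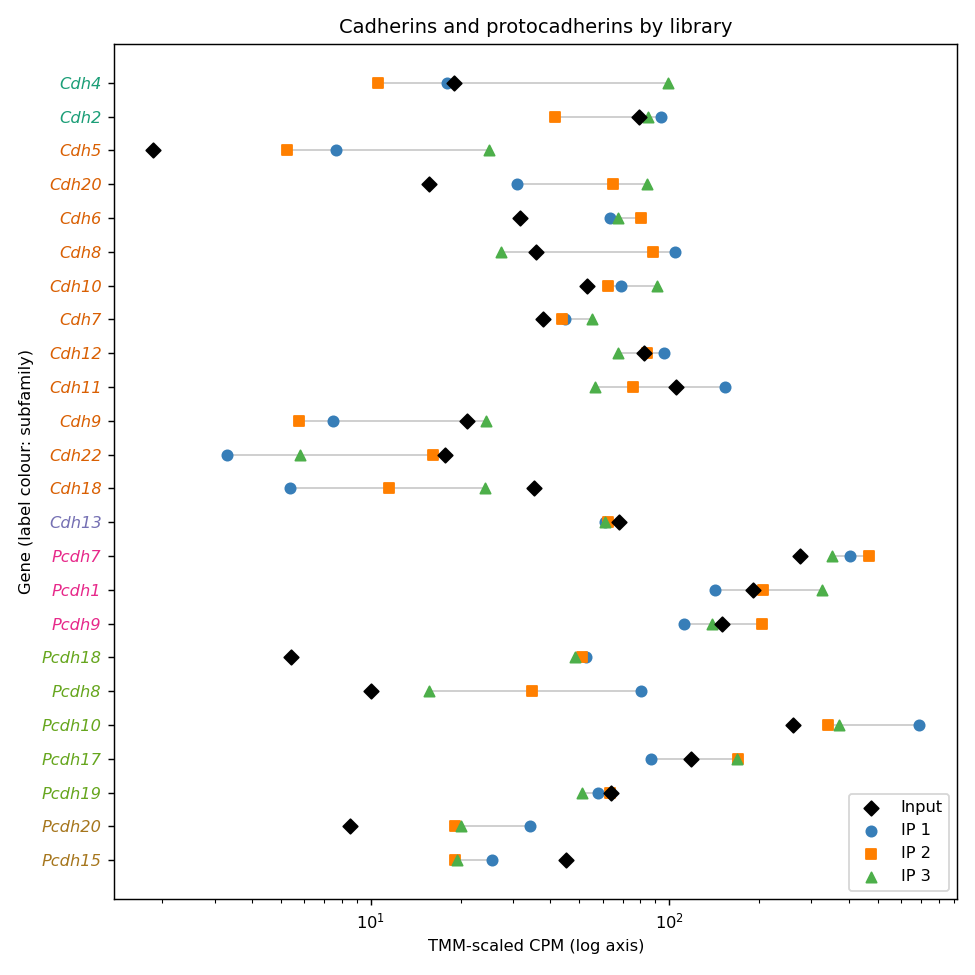
Level of each of the 24 members that reached 10 CPM, in TMM-scaled CPM on a log axis, with a black diamond for the Input and coloured points for the 3 IP libraries joined by a grey line. Genes are grouped by subfamily from top to bottom: type I, type II, Cdh13, delta-1, delta-2 and other protocadherins. Pcdh18 has its 3 IP points together at 48.4 to 52.5 CPM, far right of the Input at 5.40 CPM, while the IP points of Cdh4 spread from 10.6 to 99.6 CPM.

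Pcdh18 and Cdh20 were the members with an unadjusted p under 0.05, and the stretches just upstream of their starts are shown for that reason. The windows are the 250 bases before the RefSeq start in GRCm38.p6, chr3:49757317-49757566 on the minus strand for Pcdh18 and chr1:104768270-104768519 on the plus strand for Cdh20. Capitals mark matches on either strand to any of these motifs: the TATA box TATAAA, the GC box GGGCGG, the CCAAT box, the homeodomain core TAATTA, the E-box CACGTG and the cyclic AMP response element TGACGTCA. In Cdh20 the match to CCAAT overlaps its own reverse complement.
Pcdh18: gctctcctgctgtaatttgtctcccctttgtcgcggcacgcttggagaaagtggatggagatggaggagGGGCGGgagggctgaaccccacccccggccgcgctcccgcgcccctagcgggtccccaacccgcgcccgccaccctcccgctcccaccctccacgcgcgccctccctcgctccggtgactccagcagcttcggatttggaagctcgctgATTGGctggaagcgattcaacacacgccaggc
Cdh20: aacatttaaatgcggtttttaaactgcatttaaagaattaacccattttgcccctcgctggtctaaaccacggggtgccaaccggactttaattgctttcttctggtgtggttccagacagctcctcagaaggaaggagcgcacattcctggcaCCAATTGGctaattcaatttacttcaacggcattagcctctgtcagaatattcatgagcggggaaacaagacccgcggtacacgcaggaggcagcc

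The Pcdh18 window held 23 CG pairs and 68.0% G and C, and the Cdh20 window 10 CG pairs and 47.6%. Of 32851 windows of that length in the table, 13.3% held at least as many CG pairs as Pcdh18 and 37.8% at least as many as Cdh20. A match to CCAAT was in both windows and in 33.8% of all windows, and a match to GGGCGG was in that of Pcdh18 and in 32.7% of all. Neither window held the TATA box (12.4% of all), the homeodomain core (4.84%), the E-box (6.02%) or the cyclic AMP response element (1.55%). Windows were found for 22 of the 34 members. These matches describe letters and no binding was measured.

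Among the delta-2 protocadherins, several of which are known to bind the WAVE complex through their tails, 3 of 5 lay above the Input in all 3 IP libraries and 1 below, where 27% and 18.1% of all genes at 10 CPM or more did. Of these 3, Pcdh18 reached 10 CPM through IP alone. Pcdh18, known to bind the reelin adaptor Dab1, lies on chromosome 3 (49743296 to 49757325, protein coding). It measured 5.40 CPM in the Input (90 counts) against 52.5, 50.9 and 48.4 CPM in IP 1, 2 and 3. The mean in IP was 50.6 ± 2.05 CPM (SD, n = 3), all 3 libraries far above the Input and close to each other. The log2 fold was 3.23 ± 0.94 (SE), a fitted 9.37-fold difference (edgeR adjusted p = 0.287). Its highest IP value was 1.08 times its lowest, and 0.956% of the 9514 genes at 10 CPM or more had a smaller ratio. That small spread enters the SE and the edgeR p only in part, because these rest mostly on the spread shared over all genes. DESeq2 called Pcdh18 (log2 fold 3.24, adjusted p = 0.000145). Over the 10 alternatives its log2 fold ran from 2.96 to 3.26 and its adjusted p from 0.000145 to 0.617, the last with limma-voom. Without IP 1 the edgeR adjusted p was 0.178.

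Markers of vessel and meningeal cells are given beside Pcdh18. Of 7 mural cell markers tested, 3 lay above the Input in all 3 IP libraries and 0 below, where 19.7% and 24.1% of all genes tested did. The 8 mural cell markers summed to 76.2 CPM in whole cortex and to 135, 353 and 192 CPM in IP 1, 2 and 3. Rgs5 made up most of that sum (58.3 CPM and 111, 293 and 152 CPM), while Higd1b and Kcnj8 were at 0 in IP 2 and 3. The 8 meningeal fibroblast markers summed to 141 CPM in whole cortex and to 143, 65.5 and 139 CPM in IP, with 0 above the Input in all 3 and Lum at 0 in all IP libraries. The part of vessel and meningeal cells in the level of Pcdh18 was not tested.

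Pcdh8, or arcadlin, is made in neurons after synaptic activity and drives the uptake of N-cadherin from synapses. Its level measured 10.01 CPM in the Input against 80.6, 34.6 and 15.7 CPM in IP 1, 2 and 3. All 3 IP libraries were above the Input, and IP 1 was 5.14 times IP 3. The log2 fold was 2.12 ± 1.03 (SE, unadjusted p = 0.0541), and 1.31 in the lowest of the alternatives. Of its exon bases 9.61% are shared with the antisense gene Gm9748.

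Pcdh10, which is known for axon growth and for removal of synapses, had the highest mean CPM of the members in IP. It measured 260 CPM in the Input against 689, 341 and 372 CPM in IP 1, 2 and 3, a log2 fold of 0.85 ± 0.45 (SE, unadjusted p = 0.0761). IP 1 was again the highest, as it was for Crh and for 33.8% of all genes at 10 CPM or more. Pcdh17, found at synapses of cortex and basal ganglia, measured 119 CPM in the Input against 87.1, 170 and 169 CPM in IP, with the Input inside the range of IP. Pcdh19, the X-linked partner of N-cadherin that is mutated in an epilepsy of girls, was at 63.9 CPM and at 57.8, 63.4 and 51.1 CPM, just below the Input in all 3 (log2 fold -0.15 ± 0.65). So the 5 genes ran from a value near 0 for Pcdh17 and Pcdh19 to the large fold of Pcdh18.

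The 3 delta-1 protocadherins that the rule took, whose tails bind protein phosphatase 1, were among the 4 members with the highest level per length. Pcdh11x, also of the delta-1 group, was outside the rule and is counted below with the other cadherin superfamily genes. It measured 35.2 CPM in the Input against 60.0, 68.3 and 47.9 CPM in IP 1, 2 and 3 (log2 fold 0.74 ± 0.72). Pcdh7 measured 276 CPM in the Input against 405, 468 and 351 CPM in IP 1, 2 and 3, above the Input in each (log2 fold 0.57 ± 0.40, unadjusted p = 0.174). Of its exon bases 21.1% are shared with the antisense gene 4932441J04Rik, and whether counting separated this pair is unknown. Pcdh1 measured 192 CPM in the Input against 143, 206 and 325 CPM in IP, on both sides of the Input. Pcdh9 was at 150 CPM and at 112, 205 and 140 CPM, again on both sides. The log2 folds of Pcdh1 (0.23 ± 0.48) and Pcdh9 (0.022 ± 0.49) turned below 0 with library totals, at -0.048 and -0.26.

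The other 3 protocadherins went in different directions. Pcdh20 measured 8.51 CPM in the Input against 34.1, 19.1 and 20.1 CPM in IP 1, 2 and 3, all above the Input (log2 fold 1.52 ± 1.08, unadjusted p = 0.173). Pcdh15, which with Cdh23 forms the tip links of inner-ear hair cells and in brain is known as a gene of oligodendrocyte precursors, was at 45.2 CPM and at 25.5, 19.2 and 19.4 CPM. All 3 IP libraries were below the Input (log2 fold -1.08 ± 0.82, unadjusted p = 0.205). Beside it, the 7 markers of oligodendrocyte precursors summed to 120 CPM in whole cortex and to 63.2, 109 and 76.7 CPM in IP. Of these 7, 4 lay below the Input in all 3 and 2 above, beside 24.1% and 19.7% of all genes tested. Sox10 was among those below (28.7 CPM and 3.49, 3.21 and 6.72 CPM), and Pdgfra and Cspg4 were above. Their part in the level of Pcdh15 was not tested. Pcdh12, a cadherin of endothelial cells, had 27 counts in IP 1 and 0 in the Input, IP 2 and IP 3.

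**Figure D2:**
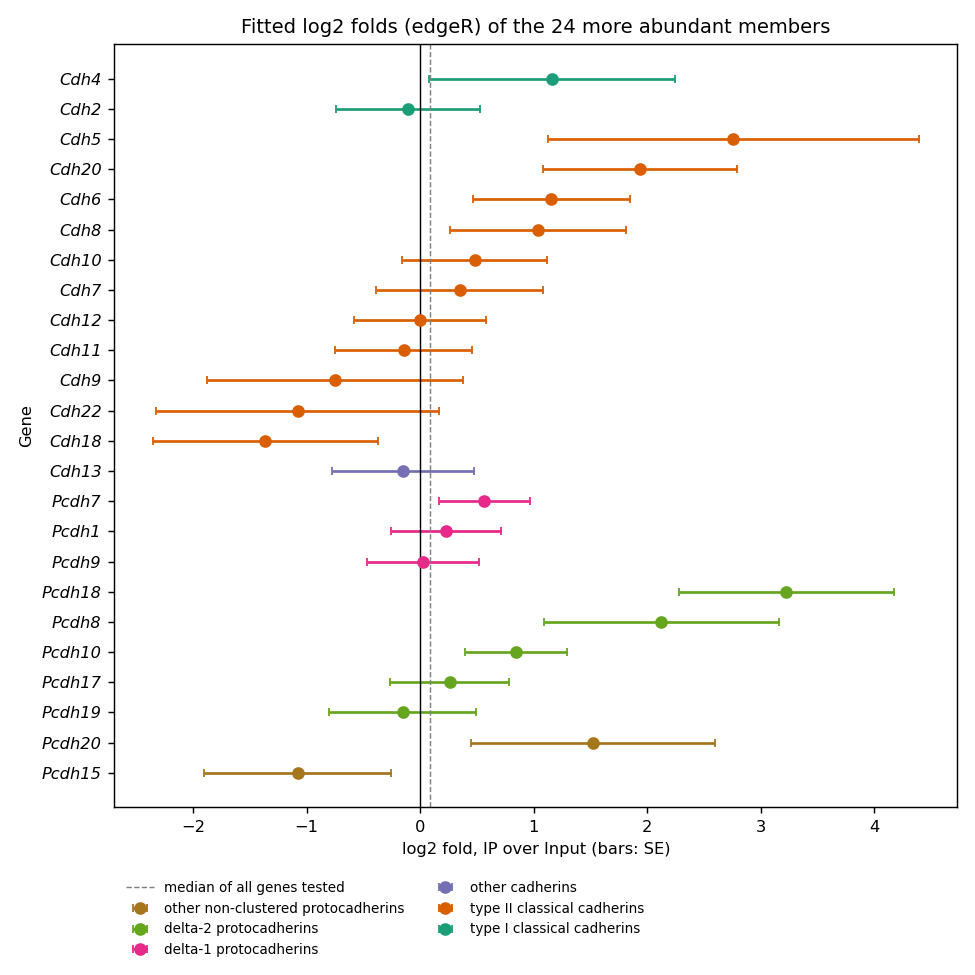
Fitted log2 fold of IP over Input for the 24 members that reached 10 CPM, by edgeR, with bars of 1 SE and colours for the subfamilies. The solid line is at 0 and the dashed line at the median of all genes tested, 0.083. For genes at 10 CPM or more that median was 0.19. Pcdh18 (3.23) has the highest value and Cdh18 (-1.36) the lowest, and no gene passed the adjusted threshold.

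The type II cadherins were the largest group, with 13 members, all of them tested, of which 5 lay above the Input in all 3 IP libraries, 3 below and 5 on both sides, where 19.7% of all genes tested lay above and 24.1% below. Their median log2 fold was 0.00064. Cdh20 (chromosome 1, 104768529 to 104995481) measured 15.7 CPM in the Input against 30.9, 64.9 and 84.2 CPM in IP 1, 2 and 3. The mean was 60.0 ± 27.0 CPM (SD, n = 3), with every IP library above the Input and IP 1 the lowest. The log2 fold was 1.94 ± 0.85 (SE, unadjusted p = 0.0348, edgeR adjusted p = 0.996). It stayed between 1.61 and 2.23 over the 10 alternatives, with adjusted p from 0.205 to 0.99999.

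Cdh6, Cdh8 and Cdh10 are neuronal cadherins that mark cortical areas and layers. Cdh6 measured 31.5 CPM in the Input against 63.2, 80.4 and 67.3 CPM in IP 1, 2 and 3, above the Input in each and with little spread (log2 fold 1.16 ± 0.69, unadjusted p = 0.112). Cdh8 measured 35.8 CPM in the Input against 104 and 88.6 CPM in IP 1 and 2, but at 27.3 CPM in IP 3, below the Input. Cdh10 was at 53.2 CPM and at 69.0, 62.6 and 91.5 CPM, and Cdh7 at 37.7 CPM and at 44.7, 43.9 and 55.3 CPM. Both were above the Input in all 3 by less than 2-fold, and neither stayed so with library totals.

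Cdh12, first described as a brain cadherin, measured 82.4 CPM in the Input against 96.0, 84.1 and 67.2 CPM in IP. Cdh11, known from osteoblasts and fibroblasts as well as neurons, was at 106 CPM and at 154, 75.9 and 56.4 CPM. In each case the Input lay inside the range of IP. Without IP 3 the log2 fold of Cdh11 turned from -0.15 to 0.12.

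Cdh18, Cdh22 and Cdh9 had the lowest folds of the type II group at 10 CPM or more. Cdh18 measured 35.2 CPM in the Input against 5.36, 11.5 and 24.1 CPM in IP 1, 2 and 3 (log2 fold -1.36 ± 0.99, unadjusted p = 0.186). Cdh22 was at 17.7 CPM and at 3.31, 16.1 and 5.78 CPM (log2 fold -1.08 ± 1.25). Both were below the Input in all 3 libraries and spread more than 4-fold within IP. Cdh9, which guides mossy fibre synapses in the hippocampus, was at 21.0 CPM and at 7.495, 5.77 and 24.3 CPM, with IP 3 above the Input. Gm49127, an antisense gene, overlaps 6.33% of the exon bases of Cdh9.

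Cdh5 is VE-cadherin, the adhesion molecule of endothelial junctions. It had 31 counts in the Input (1.86 CPM) against 7.67, 5.24 and 25.0 CPM in IP 1, 2 and 3, above the Input in all 3 (log2 fold 2.76 ± 1.64, unadjusted p = 0.108). Pecam1, another endothelial adhesion gene, was at 0.719 CPM and at 6.06, 4.92 and 30.9 CPM. Of the 12 endothelial markers 9 lay above the Input in all 3 IP libraries and 1 below, where 19.7% and 24.1% of all genes tested did. The 1 below was Esam, also an endothelial adhesion gene (3.06 CPM and 2.09, 0.428 and 0.690 CPM). Emcn and Ocln were on both sides of the Input. The summed level of the 12 was 41.6 CPM in whole cortex and 160, 520 and 206 CPM in IP 1, 2 and 3. Slc2a1 was the largest part of that sum in each library (22.8 CPM and 49.9, 307 and 103 CPM). The sum was highest in IP 2, while Cdh5 and Pecam1 were highest in IP 3. Flt1 was at 3.06 CPM and at 44.7, 94.8 and 16.0 CPM. The part of endothelial RNA in the level of Cdh5 was not tested.

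Of the type I cadherins 4 of 5 were tested. Among these, 0 lay above the Input in all 3 IP libraries, 1 below and 3 on both sides. Of all genes tested 19.7% lay above and 24.1% below, so these counts among 4 are near those shares. Cdh2, or N-cadherin, measured 79.1 CPM in the Input against 94.2, 41.4 and 84.9 CPM in IP 1, 2 and 3, with the Input inside that range (log2 fold -0.11 ± 0.63). Cdh4, or R-cadherin, was at 19.1 CPM and at 17.997, 10.6 and 99.6 CPM. IP 3 alone was above the Input, and its value was 9.41 times that of IP 2, a ratio larger than in 95% of the 9514 genes at 10 CPM or more. Its log2 fold of 1.16 ± 1.09 turned to -0.41 without IP 3. Beside the libraries' difference in Cdh4, the choroid plexus and ependymal markers summed to 43.3 CPM in IP 3 and to 0.107 and 1.61 CPM in IP 2 and IP 1, beside 5.93 CPM in the Input. Kl (33.2 CPM) and Foxj1 (10.1 CPM) made up that sum in IP 3, and Ttr, Folr1, Otx2 and Ccdc153 had no count there. Among 8 markers of the Sst and Pvalb interneuron classes, Lhx6 (21.4, 26.7 and 72.5 CPM in IP 1, 2 and 3), Sox6, Tac1 and Sst were also highest in IP 3. Pvalb, Satb1, Nos1 and Chodl were highest in another IP library. The part of any of these cells in the level of Cdh4 was not tested.

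Cdh13, or T-cadherin, is held in the membrane by a lipid anchor and has no tail for catenins. It measured 68.2 CPM in the Input against 60.96, 62.4 and 61.03 CPM in IP 1, 2 and 3, all below the Input by a log2 fold of -0.15 ± 0.62. Within IP the highest was 1.02 times the lowest, and 0.0736% of the 9514 genes had a smaller ratio.

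Counted per kb of annotated exon (GENCODE M21), levels can be compared between genes, with the limit that all isoforms share 1 length. In the Input the order was led by Pcdh7 (26.0 CPM per kb), Pcdh9 (22.1), Pcdh1 (21.8), Pcdh10 (16.4) and Cdh12 (13.1). In IP it was led by Pcdh7 (38.5 ± 5.54 CPM per kb, SD, n = 3), Pcdh10 (29.4 ± 12.1), Pcdh1 (25.5 ± 10.5) and Pcdh9 (22.4 ± 7.03). Neighbours in that order overlapped over the IP libraries, so their order is within the spread, while Pcdh7 (33.1 to 44.1) lay above Pcdh9 (16.5 to 30.2) without overlap. Cdh20 came next in IP (15.0 ± 6.72 CPM per kb), from rank 16 in the Input to rank 5. Pcdh18 went from rank 23 (1.01 CPM per kb) to rank 11 (9.43 ± 0.381), and Pcdh8 from rank 20 (2.21) to rank 9 (9.62 ± 7.36). Cdh18 moved the other way, from rank 9 (7.73) to rank 22 (3.004 ± 2.10), and Cdh22 from rank 14 to rank 23. Cdh12, Pcdh17, Cdh11 and Cdh2 kept ranks 5 to 8 in the Input and 6 to 12 in IP.

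**Figure D3:**
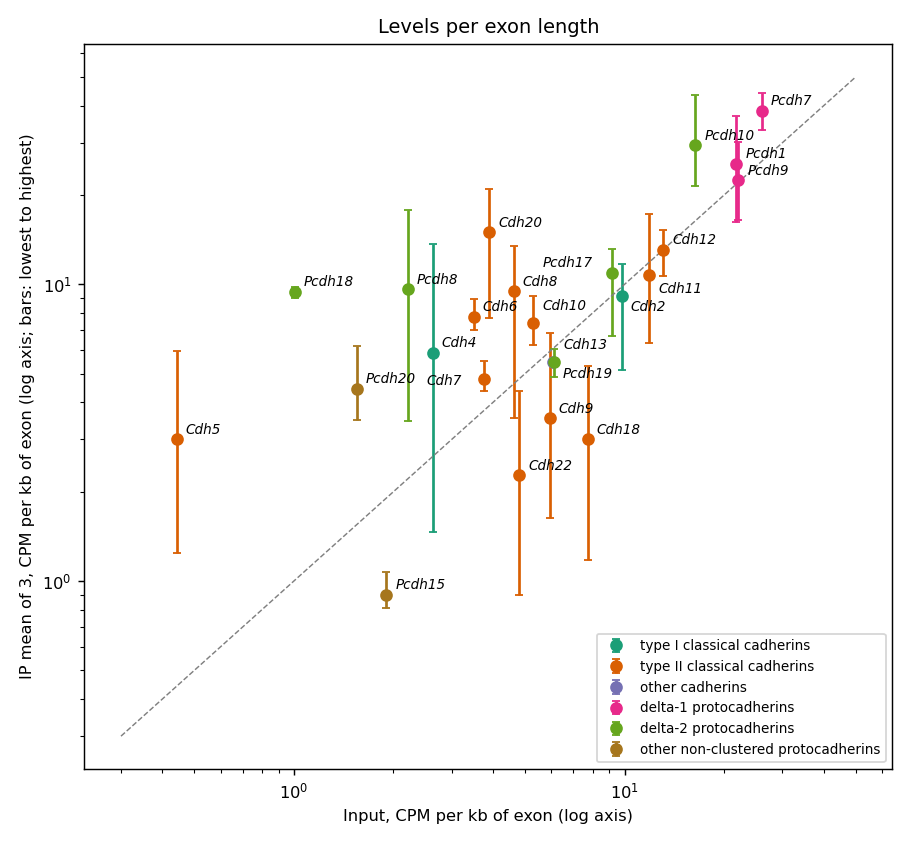
Level per kb of exon in the Input (horizontal) and as the mean of 3 IP libraries (vertical) for the 24 members that reached 10 CPM, both on log axes, with bars from the lowest to the highest IP library. The dashed line marks equal levels, and the point of Cdh13 lies under that of Pcdh19. Pcdh18 lies far above the line with a short bar (9.03 to 9.79 CPM per kb), and Cdh18 and Cdh22 lie below it.

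As shares of reads rather than of molecules, the 34 members together held 1739 CPM of the Input and 2452, 2235.5 and 2288 CPM of IP 1, 2 and 3. The 3 delta-1 protocadherins among them, without Pcdh11x, took 35.5% of that sum in the Input and 33.96 ± 6.37% in IP. The delta-2 protocadherins took 26.3% in the Input against 39.4%, 29.6% and 28.7% in IP 1, 2 and 3, above the Input in each. The type II cadherins took 25.4% and 23.8 ± 0.580%. Type I cadherins took 5.75% in the Input against 4.77%, 2.33% and 8.06% in IP, on both sides of it. Pcdh10 alone accounts for most of the delta-2 sum in each library, and its level in IP 1 (689 CPM) goes with the share of 39.4% there.

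**Figure D4:**
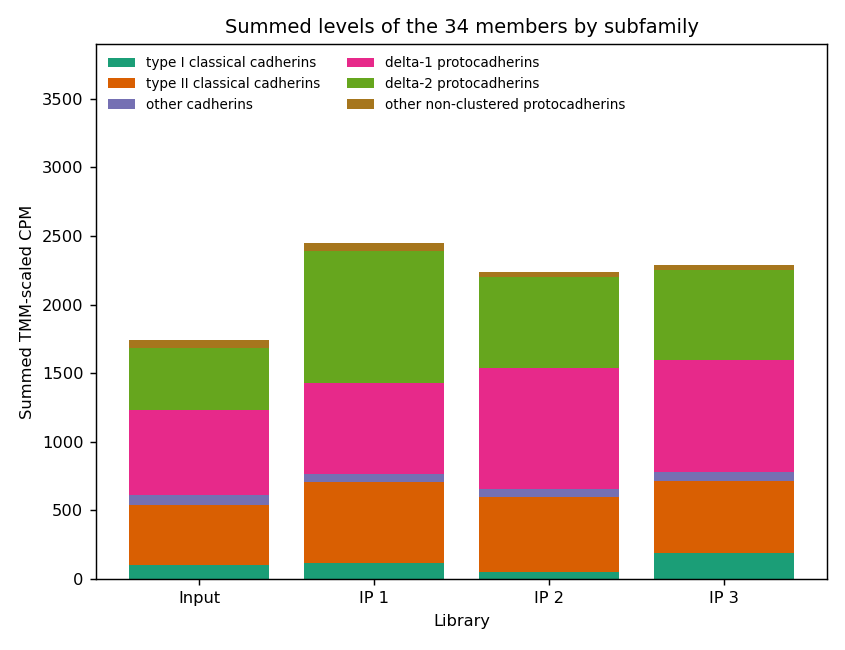
Summed TMM-scaled CPM of the 34 members in each library, stacked by subfamily on an axis from 0. The 3 IP bars end between 2235.5 and 2452 CPM, above the Input at 1739 CPM, and the delta-2 segment is thickest in IP 1.

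The 10 members that stayed under 10 CPM in both groups are given by their counts. For these, intervals and limits cover counting error only. Cdh3 (P-cadherin), Cdh16 (a kidney cadherin) and Cdh17 (an intestinal cadherin) had 0 counts in every library, which allows up to 0.180 CPM for the Input and, for IP 1, 2 and 3, 0.131, 0.321 and 0.259 CPM. Cdh23 had 8 counts in the Input (0.480 CPM) and 0 in IP, which allows up to 0.0683 CPM over the 3 IP libraries together (3 counts). Cdh1, the epithelial E-cadherin, had 20 counts in the Input and 2 in IP as a whole, which gives a ratio of pooled IP to Input of 0.0380 (95% counting interval 0.00431 to 0.156). Cdh24 had 17 counts in the Input against 0, 5 and 0 in IP, a pooled ratio of 0.112 (0.0322 to 0.316). That ratio does not describe IP 2, where Cdh24 measured 0.534 CPM beside 1.02 CPM in the Input. Cdh1 and Cdh24 were below the Input in all 3 IP libraries.

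Of the other low members, Cdh15, Cdh26 and Pcdh12 were seen mainly in 1 IP library. Cdh15, the muscle cadherin, had 9 counts in the Input against 106, 1 and 0 in IP 1, 2 and 3. Cdh26 had 1 count in the Input and 22 in IP 3 alone, and Pcdh12 had its 27 counts in IP 1 alone. Cdh19, a cadherin of glia and Schwann cell precursors, had 40 counts in the Input against 1, 29 and 13 in IP, a pooled ratio of 0.408 (95% counting interval 0.259 to 0.645). For these 4 genes the difference between IP libraries exceeds what 1 pooled value can describe, so no direction is drawn from the pooled ratio. At least 1 count was seen for 30 members in the Input, and for 28, 27 and 26 in IP 1, 2 and 3.

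Some members lie close together on a chromosome, and the fitted folds of such neighbours differed in sign in some cases and not in others. On chromosome 15, 5 type II genes lie within 10.4 Mb (13.0 to 23.5 Mb), in the order Cdh6, Cdh9, Cdh10, Cdh12 and Cdh18. Their log2 folds were 1.16 ± 0.69, -0.75 ± 1.13, 0.48 ± 0.64, 0.00064 ± 0.58 and -1.36 ± 0.99 (SE). None passed the test, and the IP libraries of Cdh9 and Cdh12 were on both sides of the Input. On chromosome 1, Cdh20, Cdh7 and Cdh19 lie within 6.2 Mb, with log2 folds of 1.94, 0.35 and -0.76. The value of Cdh19 has an SE of 2.51, and its IP libraries were on both sides of the Input, so no direction is drawn from it. On chromosome 3, Pcdh10 and Pcdh18 lie within 4.4 Mb and both had higher levels than the Input in all 3 IP libraries. The members had a median of 6.18 kb of exon, beside 4.48 kb for the 97.8% of genes tested that had a length.

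Catenins link the classical cadherins to actin. Of 17 catenins and relatives 15 were tested, with a median log2 fold of 0.15 beside 0.083 for all genes. Called were 0 by any of the 3 tools, where edgeR called 0.458% of all genes, DESeq2 1.24% and limma-voom 0.348%, so a count of 0 among 15 is near those shares. At an unadjusted p under 0.05 the count was 0, against 4.43% of all genes. In all 3 IP libraries 4 of the 15 were higher than the Input and 3 lower, near the shares of all genes (19.7% and 24.1%). Ctnnb1, or beta-catenin, which binds the classical tail, measured 175 CPM in the Input against 284 ± 27.9 CPM in IP, above in all 3 (log2 fold 0.70 ± 0.43). Ctnnd2, the neuronal delta-catenin, was at 504 CPM and 581 ± 124 CPM, and Pkp4 at 275 CPM and 256 ± 30.4 CPM.

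Of 28 other genes of the cadherin superfamily 26 had rows and 15 were tested, with 0 called by edgeR (0.458% of all genes), 1 by DESeq2 (1.24%) and 0 by limma-voom (0.348%). Of the 15, 9 lay above the Input in all 3 IP libraries and 2 below, where 19.7% and 24.1% of all genes tested did. Their median log2 fold was 0.75, beside 0.083 for all genes. The calsyntenins are cadherin-like proteins of the postsynaptic membrane. Clstn2 and Clstn3, named after their values were seen, were the 2 of 15 with an unadjusted p under 0.05, where 4.43% of all genes had one (3.2% higher in IP). Clstn2 measured 83.1 CPM in the Input against 350, 170 and 333 CPM in IP 1, 2 and 3 (log2 fold 1.77 ± 0.52, edgeR adjusted p = 0.287). It passed with DESeq2 (adjusted p = 0.0433) and without IP 2 (0.0380), with a range of 0.0380 to 0.563 over the 10 alternatives. Clstn3 was at 62.1 CPM and at 171, 128 and 164 CPM (log2 fold 1.31 ± 0.53, edgeR adjusted p = 0.896). Clstn1 was at 455 CPM and 395 ± 119 CPM. The giant cadherin Fat3 was at 417 CPM and 355 ± 116 CPM, and Celsr2, a planar polarity cadherin, at 202 CPM and 338 ± 106 CPM.

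Of 11 cytoplasmic partners of protocadherins, WAVE complex subunits among them, 11 were tested and 0 called by any of the 3 tools, which is near the shares of all genes given for the catenins. The count at an unadjusted p under 0.05 was 0, against 4.43% of all genes. Here 1 lay above the Input in all 3 IP libraries and 5 below, where 19.7% and 24.1% of all genes tested did, and the median log2 fold was -0.26, beside 0.083. Cyfip2 measured 2142 CPM in the Input against 2195 ± 371 CPM in IP, Nckap1 at 1104 CPM and 937 ± 93.0 CPM, and Abi2 at 582 CPM and 447 ± 48.4 CPM. Nckap1 and Abi2 were below the Input in all 3, and Cyfip2 was on both sides of it.

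**Figure D5:**
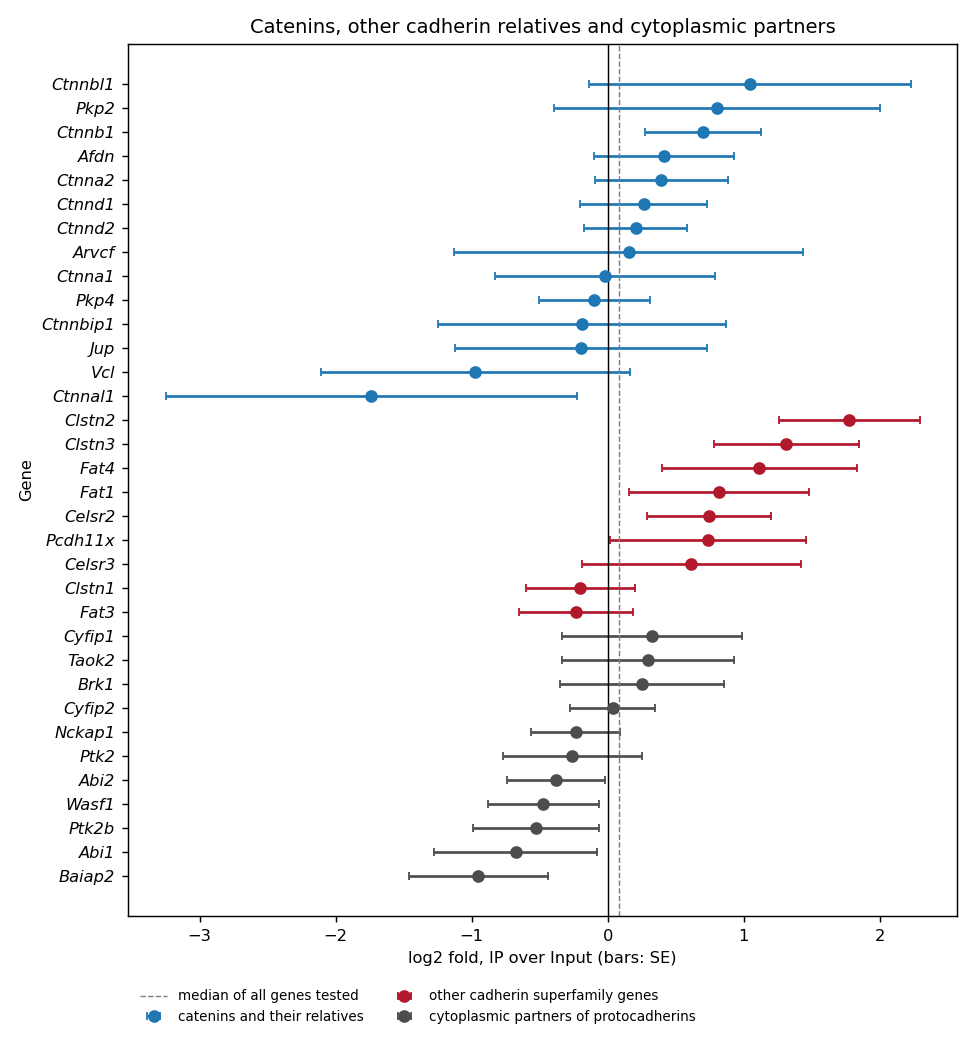
Fitted log2 fold of IP over Input by edgeR, with bars of 1 SE, for 34 genes of at least 10 CPM: 14 catenins and relatives, 9 other cadherin superfamily genes and 11 cytoplasmic partners. The dashed line is the median of all genes tested, 0.083, while that of all genes at 10 CPM or more was 0.19. Clstn2 (1.77) has the highest value among the superfamily genes, and no gene passed the adjusted threshold.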

How the data were processed

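The values are raw read counts for each gene as the authors deposited them, with 1 table for each library holding an Entrez identifier and a symbol. STAR 2.0.0e, HTSeq and mm10 are named per the submitters' processing notes, while the tables' names hold the word subread, so the counter was not settled. Annotation, strand and treatment of multiply mapped reads are not given in the sources used here. Total counts ran from 10031072 to 23548375. Genes without a symbol (9, at most 0.0221% of counts) stayed in under their identifier. No library was a copy of another (chi-square per degree of freedom at least 75.4).

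The filter was filterByExpr (minimum count 10) in edgeR 4.0.16 under R 4.3.3, with TMM scaling. IP and Input were then set against each other by the quasi-likelihood F test on 14636 genes, with Benjamini-Hochberg adjustment and a threshold of 0.05. SE is the absolute log2 fold over the root of F. Residual degrees of freedom were 2, with a prior of 17.0, and the lone Input was assumed to vary like the IP libraries. Of the members 30 of 34 passed the filter, and one that passed through its high group alone had to differ, so counts over the 30 are descriptions. The same holds for counts over the 24 members that reached 10 CPM in the Input or the mean of IP. Positions, exon lengths and overlaps came from GENCODE M21 (GRCm38, the assembly of mm10), and upstream sequences from RefSeq (GRCm38.p6).

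Members with an unadjusted p under 0.05 or at least 10 CPM in the Input or the mean of IP were given by library, and of each related list the called genes and the 3 with the highest mean CPM were named. Members, subfamilies and lists were chosen with earlier results of these data known. Alternatives were DESeq2 1.42.0, limma-voom (limma 3.58.1), RLE, upper-quartile or no scaling factors, no filter on low counts, a filter at a mean of 5 CPM, and leaving out each IP library.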

Additional observations from a re-analysis of the deposited data

How the results depend on the processing

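Calls over all genes (67 in the main test, 60 higher and 7 lower) came to 181 with DESeq2 (167 and 14) and 108 without a low-count filter (94 and 14). The split was 37 higher and 14 lower with limma-voom, and 15 were lower with upper-quartile factors and 15 with library totals. Leaving out each IP library in turn gave 90 to 210 calls, with 82 to 185 higher and 8 to 25 lower, the most without IP 1. Members called were 0 in each fit except DESeq2, with 1 (Pcdh18), and related genes called were 0 except with DESeq2 and without IP 2, with 1 each (Clstn2), a range of 0 to 1 over the libraries left out. The members' median log2 fold of 0.30 was 0.085 with upper-quartile factors, 0.028 with library totals, 0.20 with a mean of at least 5 CPM, 0.074 with limma-voom, and 0.12 to 0.40 with 1 IP library left out. Of 260 values of single genes under these alternatives 241 kept direction and side of the threshold and 16 changed sign. With upper-quartile factors these were Pcdh9 (-0.20) and Cdh12 (-0.22), with library totals Pcdh9 (-0.26), Cdh12 (-0.27), Pcdh17 (-0.019) and Pcdh1 (-0.048), at a mean of 5 CPM Pcdh9 (-0.086) and Cdh12 (-0.11), and with limma-voom Pcdh9 (-0.10). With 1 IP library left out the log2 fold ran from -0.70 to 0.12 for Cdh11 (above 0 without IP 3), -0.35 to 0.18 for Cdh2 (above 0 without IP 2), -0.41 to 1.62 for Cdh4 and -0.14 to 0.45 for Pcdh1 (both below 0 without IP 3), -0.14 to 0.13 for Cdh12 (-0.015 without IP 2) and -0.25 to 0.18 for Pcdh9 (below 0 without IP 2). The cause of these differences was not tested. No paired analysis was possible because the Input is a single library with no replicate number in its label. Depth limits the 10 members under 10 CPM, where 1 count is worth 0.0436 to 0.107 CPM.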
